A study of Mus musculus and Homo sapiens
Mus musculus with 12 samples.

Results

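Imprinted genes are transcribed from the copy of 1 parent, and 10 transcripts of 4 imprinted regions were followed here across the kinds of nuclei in mouse brain libraries. Meg3, Rian, Mirg and Dlk1 lie in the Dlk1-Dio3 region, Snhg14, Snrpn, Ndn and Ube3a in the Prader-Willi region, Peg3 in the region that bears its name, and Kcnq1ot1 in the Kcnq1 region. They were chosen by symbol, and each of the 10 had a row among the 34496 gene rows of the brain files. The libraries were made by snHH-seq, a droplet method that reverse transcribes the total RNA of single nuclei with random primers and counts UFIs (unique fragment identifiers), so that a fragment copied many times is counted once and transcripts without a poly-A tail are also read. Nuclei came from brains of wild-type male C57BL/6J mice aged 6 to 8 weeks, taken from tissue crushed in liquid nitrogen and fixed in paraformaldehyde. No allele, transgene or treatment differed between the groups, which were set by storage of the tissue and by the reverse transcription primer: 2 frozen libraries without preindex (No_index_frozen), 2 frozen libraries with a preindex in the primer (Index_frozen), 2 fresh libraries without preindex (No_index_fresh) and 1 fresh library with preindex (Index_fresh). The preindex is a first barcode given to the cDNA inside the nuclei, before the droplets add another. The labels do not say that the libraries came from separate animals, so the p-values below measure the spread between libraries, which may be technical.

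An imprinted region is set up by a stretch of DNA that is methylated in the germ line of 1 parent, and the mark then decides which parental copy is read. In the Dlk1-Dio3 region the paternal copy makes Dlk1, a transmembrane protein of the Notch ligand family, and the maternal copy makes the long noncoding RNAs Meg3, Rian and Mirg. Rian hosts C/D box small nucleolar RNAs and Mirg a large cluster of microRNAs. In the Prader-Willi region the paternal copy makes Snrpn, which encodes the spliceosome protein SmN, Ndn, which encodes Necdin, a protein of the MAGE family, and Snhg14, a very long host transcript of small nucleolar RNAs. Snhg14 runs on in neurons across Ube3a on the opposite strand, and the paternal copy of Ube3a, which encodes a ubiquitin ligase, is silent there, while both copies of Ube3a are used in most other cells. Peg3 is a paternally expressed zinc finger gene, and Kcnq1ot1 is a paternally expressed noncoding RNA that starts inside the potassium channel gene Kcnq1 on the opposite strand. The counts below do not tell the parental copies apart.

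In the GENCODE annotation of GRCm38, Dlk1 lies at chr12:109452823-109463336, Meg3 at chr12:109541001-109571726, Rian at chr12:109603940-109661716 and Mirg at chr12:109729764-109749460, all on the plus strand. On chromosome 7, Peg3 lies at chr7:6703892-6730431 on the minus strand, Ube3a at chr7:59228750-59311536 on the plus strand, Snhg14 at chr7:59307924-59975759 on the minus strand, Snrpn at chr7:59982495-60140219 on the minus strand, Ndn at chr7:62346569-62350262 on the plus strand and Kcnq1ot1 at chr7:143203458-143296549 on the minus strand. Snhg14 and Ube3a overlap over 3613 bases on opposite strands, and the whole of Kcnq1ot1 lies within Kcnq1. UFIs were assigned to whole gene bodies, introns included. The method reads strand, and the counting separated the overlapping genes: over all nuclei the Kcnq1ot1 row held 69132 UFIs and the Kcnq1 row 2393. Snrpn shares its strand and part of its body with Gm38393, a protein-coding model with a row of its own, so that reads of this stretch may be split between them or left out.

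The start sites of these genes were searched for letters they share, and 5 of them are shown. All are RefSeq start windows of the GRCm38.p6 build, 250 bases before to 50 bases after the start, written 5′ to 3′ on the strand of the gene. Capitals mark the cAMP response element TGACGTCA in Meg3 and Peg3, and in Snrpn and Ndn the core GCATGCG of the motif of nuclear respiratory factor 1 with its reverse complement CGCATGC, which overlap there. The Ube3a window has neither and is shown for its many CpG pairs. The motifs, also the GC box GGGCGG, were searched on both strands and were chosen after the windows had been read.
Meg3, chr12:109540746-109541045, plus strand: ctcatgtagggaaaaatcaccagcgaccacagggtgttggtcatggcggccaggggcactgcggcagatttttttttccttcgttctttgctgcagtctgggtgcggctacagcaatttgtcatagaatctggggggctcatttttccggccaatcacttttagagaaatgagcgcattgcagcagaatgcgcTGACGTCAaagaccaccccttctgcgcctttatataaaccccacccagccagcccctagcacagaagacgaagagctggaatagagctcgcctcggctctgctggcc
Peg3, chr7:6730370-6730669, minus strand: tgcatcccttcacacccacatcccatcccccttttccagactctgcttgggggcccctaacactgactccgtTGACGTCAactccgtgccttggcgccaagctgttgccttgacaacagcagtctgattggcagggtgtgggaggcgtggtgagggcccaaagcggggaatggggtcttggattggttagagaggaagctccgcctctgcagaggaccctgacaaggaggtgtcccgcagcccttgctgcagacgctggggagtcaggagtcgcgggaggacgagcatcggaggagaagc
Snrpn and Snhg14, shared upstream start, chr7:60450128-60450427, minus strand: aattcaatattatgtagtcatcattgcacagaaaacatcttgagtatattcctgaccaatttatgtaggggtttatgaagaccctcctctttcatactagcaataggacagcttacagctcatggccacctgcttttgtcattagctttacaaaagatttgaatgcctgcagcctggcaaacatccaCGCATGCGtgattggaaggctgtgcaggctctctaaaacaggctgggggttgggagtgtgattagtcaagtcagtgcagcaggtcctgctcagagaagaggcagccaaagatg
Ndn, chr7:62348027-62348326, plus strand: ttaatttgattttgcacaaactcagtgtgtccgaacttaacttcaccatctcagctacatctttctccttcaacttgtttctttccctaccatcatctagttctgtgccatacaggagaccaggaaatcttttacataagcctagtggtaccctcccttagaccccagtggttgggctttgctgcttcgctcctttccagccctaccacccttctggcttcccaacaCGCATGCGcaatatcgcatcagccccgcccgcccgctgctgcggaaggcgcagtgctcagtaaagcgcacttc
Ube3a, chr7:59228500-59228799, plus strand: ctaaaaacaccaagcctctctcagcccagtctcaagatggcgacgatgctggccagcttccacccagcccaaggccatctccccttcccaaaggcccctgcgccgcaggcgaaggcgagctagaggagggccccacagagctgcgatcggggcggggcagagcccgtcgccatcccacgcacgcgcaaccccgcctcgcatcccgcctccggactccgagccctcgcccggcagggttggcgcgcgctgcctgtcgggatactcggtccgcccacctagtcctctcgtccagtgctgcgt

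The cAMP response element stood once in the printed Meg3 window and once in the Peg3 window, and 1.79% of 32851 RefSeq start windows of the same length hold it. Another RefSeq start window of Meg3 (chr12:109545148-109545447) does not hold it and has 1 CpG pair. The core of the nuclear respiratory factor 1 motif, present in 3.58% of windows, was found in the Ndn window and in each of the 4 Snrpn windows (chr7:60450128-60450427, 60140176-60140475, 60047929-60048228 and 60005150-60005449), the first of which RefSeq gives to Snhg14 as well. Each of these windows held 2 overlapping matches, 1 on each strand. The GC box, which 35.7% of windows hold, was found 2 times in the Ndn window and 2 times in the Ube3a window. The E-box CACGTG, in 7.15% of windows, was in none of the windows of the 10 genes. Ube3a had 29 CpG pairs in its window, a number that 88.3% of windows do not exceed, the printed Meg3 window and the Peg3 window had 13 each, Kcnq1ot1 (chr7:143296498-143296797) had 9, and the shared Snrpn and Snhg14 window had 2, against a median of 7 over all windows. A match is a run of letters and not a measured site. The RefSeq start shared by Snrpn and Snhg14 lies outside the GENCODE body of both genes, to which the UFIs were assigned.

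The bodies of Meg3, Rian and Mirg hold 2, 3 and 14 microRNA genes, whose mature forms RefSeq lists in GRCm38.p6. None of these microRNA genes has a row of its own, and whether fragments of the precursors were counted for the host transcript was not tested. Among the 35 mature sequences in these bodies, 1 seed was shared by a pair. One mature form of Meg3, 2 of Rian and 4 of Mirg are printed to show what the counted transcripts carry, with the seed (bases 2 to 8) in capitals.
miR-770-5p, in Meg3, chr12:109563710-109563731: aGCACCACgugucugggccacg
miR-341-3p, in Rian, chr12:109611556-109611576: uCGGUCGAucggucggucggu
miR-370-3p, in Rian, chr12:109618305-109618326: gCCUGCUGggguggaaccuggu
miR-134-5p, in Mirg, chr12:109734145-109734166: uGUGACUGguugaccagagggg
miR-410-3p, in Mirg, chr12:109743764-109743784: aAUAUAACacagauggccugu
miR-453, in Mirg, chr12:109735669-109735692: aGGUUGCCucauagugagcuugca
miR-496a-5p, in Mirg, chr12:109739132-109739152: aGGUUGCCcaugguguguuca
The last pair shares the seed GGUUGCC.

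The 7 libraries held 700 to 3100 nuclei, 11198 in all, and 8605214 to 42439731 UFIs each, with a median of 9011.5 to 27543 UFIs per nucleus. Clusters were built without the 10 genes and without 65 further imprinted genes, and were named from lists of marker genes. Of all nuclei, 9836 in 18 clusters were neuron-like, 630 were glia-like (317 oligodendrocyte-like, 201 astrocyte-like and 112 OPC-like, for oligodendrocyte precursor cells), 101 were endothelial-like, 89 formed a cluster led by liver genes with microglia markers and 61 were unnamed. Another 481 nuclei formed a cluster in which 9 of 9 kidney tubule markers were at least 2-fold above the other clusters, which goes against the label brain. These kidney-rich nuclei were found in the 2 Index_frozen libraries only, 268 in the first and 213 in the second, and mostly carried other preindexes than the rest: 28 against 19 preindexes with 3 shared in the first, and 26 against 16 with 0 shared in the second. The tests over all nuclei are therefore given with and without them below. Pairs of libraries shared between 0 and 10 cell barcodes. The treatment field of the labels names the opposite primer for 4 of the 7 libraries, and the groups follow the titles, which fit the lengths of the deposited barcodes.

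Per kb of gene body and in neuron-like nuclei, Meg3 stood at 97.7 ± 4.90 CPM per kb (SD, n = 7 libraries), the highest of the 10 genes. CPM are UFIs of the gene scaled to the total UFIs of the summed nuclei. Rian followed with 14.3 ± 1.05 and Peg3 with 10.98 ± 1.43 CPM per kb. Mirg stood at 5.48 ± 0.37, Kcnq1ot1 at 4.12 ± 0.42 and Ndn at 3.98 ± 0.80 CPM per kb, and the last 2 lay within 1 SD of each other. Snhg14, whose body spans 667836 bases, stood at 2.24 ± 0.14, Ube3a at 1.12 ± 0.07, Dlk1 at 0.84 ± 0.29 and Snrpn at 0.55 ± 0.06 CPM per kb, and Ube3a and Dlk1 lay within 1 SD of each other. The Snrpn value misses any reads of the stretch shared with Gm38393 that were counted there or left out. In kidney-rich nuclei the order was another one, with Kcnq1ot1 highest at 4.52 CPM per kb, followed by Meg3 at 1.98, Ube3a at 1.91 and Peg3 at 0.717.

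**Figure D1:**
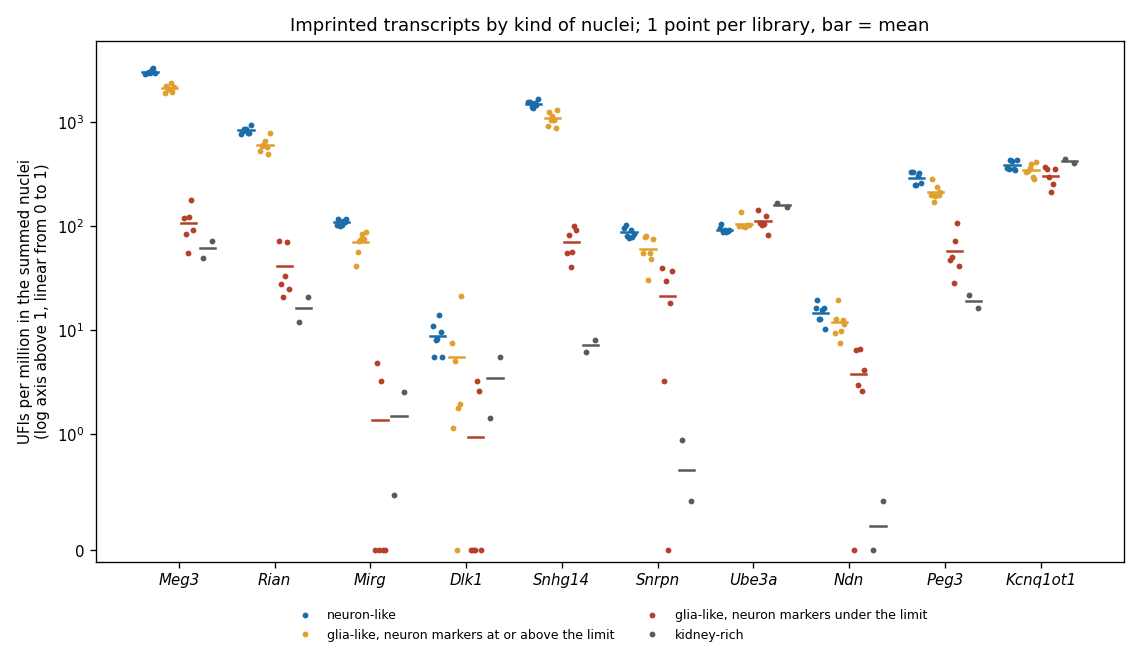
Level of the 10 imprinted transcripts in 4 kinds of nuclei, in CPM (log axis above 1, linear from 0 to 1). Each point is 1 library with at least 10 nuclei of the kind and each bar is the mean. Meg3, Rian, Mirg and Snhg14 drop by more than 10-fold from neuron-like nuclei to kidney-rich nuclei and to glia-like nuclei with few neuronal markers, while the means of Ube3a and of Kcnq1ot1 lie within 2-fold in all 4 kinds.

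The question put to the libraries was where these transcripts are found in the brain: in neurons, in glia, or also in nuclei of another tissue. UFIs were summed per library and kind of nuclei, and neuron-like sums were compared with glia-like and kidney-rich sums in 1 fit with the library as a block (edgeR quasi-likelihood test, Benjamini-Hochberg adjusted p under 0.05). Against glia-like nuclei 9 of the 10 genes were higher in neuron-like nuclei and Ube3a did not pass. Of all 13830 genes tested, 43.1% passed in this comparison and 21.1% were higher in neuron-like nuclei. The median log2 change was 0.91 over the 10 genes and 0.03 over all genes. Against kidney-rich nuclei 8 of the 10 were higher, Ube3a was lower and Dlk1 did not pass, where 68.5% of all genes passed, 30.4% higher and 38.1% lower. The median log2 change was then 5.94 over the 10 genes and -0.15 over all genes. Both comparisons share the neuron-like sums. Of the 8 genes higher than in kidney-rich nuclei, Mirg, Snrpn and Ndn held 7, 3 and 1 UFIs there. These passed the filter on low counts through the other sums.

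The glia-like nuclei were not free of neuronal RNA, and this moved with the values that follow. The summed level of 7 neuron markers (Snap25, Syt1, Rbfox3, Celf4, Grin1, Grin2b and Dnm1) was 9495 ± 400 CPM in neuron-like nuclei (SD, n = 7), 5395 ± 767 in glia-like nuclei (n = 7) and 48.7 ± 17.1 in kidney-rich nuclei (n = 2). These 7 markers were each higher in neuron-like than in glia-like nuclei, with a median log2 change of 0.91, the same size as that of the imprinted genes. Whether the neuronal UFIs in glia-like barcodes come from doublets, free RNA or the glia themselves was not tested, and no doublets were removed. A glia-like nucleus was therefore set apart where the 7 markers made up less than 10% of the median share in neuron-like nuclei, a limit of 958 CPM chosen after the data had been seen. Under it fell 219 of 630 glia-like nuclei (34.8%, and 11.5% to 49.7% per library), 477 of 481 kidney-rich nuclei and 1 of 9836 neuron-like nuclei. In these 219 nuclei the neuron markers summed to 442 ± 164 CPM (n = 6 libraries with at least 10 such nuclei) and the list of oligodendrocyte markers to 10273 ± 3406 CPM, beside 4669 ± 1684 in all glia-like nuclei (n = 7). The median depth of the marker-poor glia-like nuclei was 9779 UFIs, against 12993 in neuron-like and 8765 in kidney-rich nuclei. In marker-poor kidney-rich nuclei Grin1 was at 0.

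Against these marker-poor glia-like nuclei the same 9 genes were higher in neuron-like nuclei, by a median log2 change of 3.12, and Ube3a did not pass. Here 47.0% of 13790 genes passed, 26.4% were higher, and the median over all genes was 0.14. The neuron markers changed by a median of 4.72, but these nuclei were picked for few of the same markers, so a large change was fixed in advance. A transcript whose level runs with these markers among glia-like nuclei, as that of Meg3 does, was lowered by the same choice. Changes against marker-poor glia-like nuclei, here and below, therefore describe sizes, and their p-values are not separate support. Against marker-poor kidney-rich nuclei 9 genes were higher and Ube3a did not pass, with 58.2% of all genes passing and 31.1% higher. Of these 9, Mirg, Dlk1, Snrpn and Ndn held 7, 2, 2 and 1 UFIs in those kidney-rich nuclei. They passed the filter on low counts through the other sums. In marker-poor glia-like nuclei Mirg, Dlk1 and Ndn held 5, 2 and 10 UFIs, and these too passed the filter through the other sums. Upper-quartile scaling in place of TMM moved the median over all genes in these 2 comparisons from 0.14 to -0.003 and from 0.10 to -0.17, and log2 changes near these sizes are read with that shift in view.

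**Figure D2:**
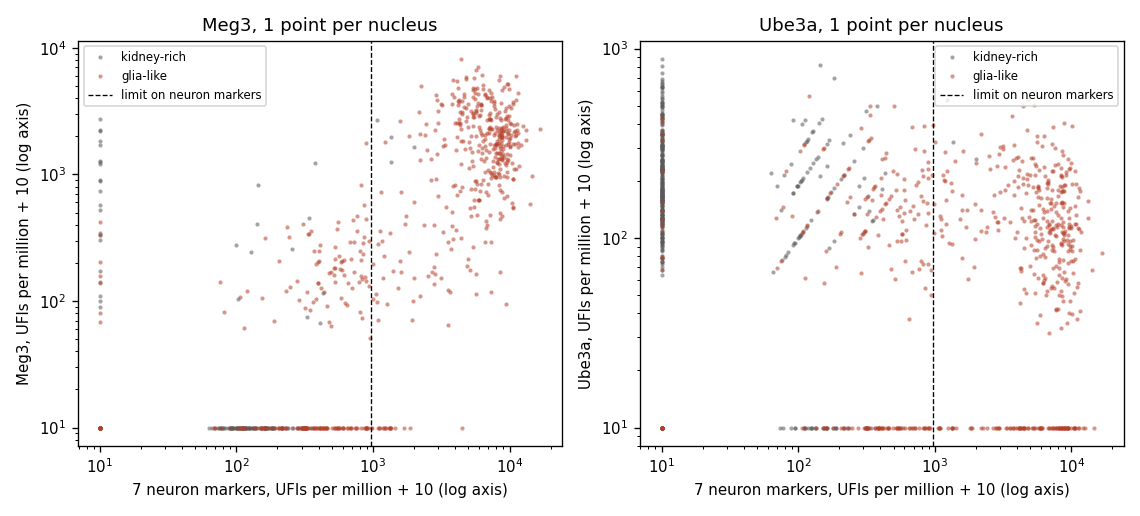
Level of Meg3 and of Ube3a in single glia-like and kidney-rich nuclei against the summed level of 7 neuron markers in the same nucleus (CPM plus 10, both axes log), with a line at the limit of 958 CPM. Among glia-like nuclei Meg3 runs upward with the neuron markers and Ube3a does not. Most kidney-rich nuclei lie at 10, without a UFI of Meg3, and among the 7.48% of them with 1 or more are nuclei that hold no UFI of a neuron marker.

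In the Dlk1-Dio3 region, Meg3 had 2852 CPM in the lowest library, a median of 2942 and 3254 in the highest library in neuron-like nuclei (3001 ± 151, SD, n = 7). In glia-like nuclei it ranged from 1292 through a median of 1708 to 1952 CPM (1641 ± 259, n = 7), and in those with few neuron markers from 55.2 through 105 to 177 CPM (108 ± 41.9, n = 6). In kidney-rich nuclei it stood at 49.5 and 72.2 CPM in Index_frozen_1 and Index_frozen_2. No library of another kind reached the lowest neuron-like library, but these sums pool all neuron-like clusters. The dentate granule-like cluster among them had 605 to 848 CPM of Meg3 between libraries, below every glia-like library. The log2 change from glia-like to neuron-like nuclei was 0.98 ± 0.10 (SE, edgeR adjusted p = 5.36e-07), or 5.202 ± 0.217 against the marker-poor glia-like nuclei (edgeR adjusted p = 1.11e-12), and 5.89 ± 0.22 from kidney-rich to neuron-like nuclei (edgeR adjusted p = 1.24e-12).

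Rian, the snoRNA host downstream of Meg3, followed the same order. It ranged from 770.0 through a median of 817 to 936 CPM in neuron-like nuclei, from 375 through 458 to 588 CPM in glia-like nuclei and from 20.9 through 30.2 to 71.3 CPM in the marker-poor ones, and stood at 11.9 and 20.8 CPM in the kidney-rich nuclei of the 2 libraries. The kinds of nuclei did not overlap, although the lowest marker-poor library came close to the higher kidney-rich one. The log2 change was 0.92 ± 0.09 against glia-like nuclei (edgeR adjusted p = 6.33e-07), 4.79 ± 0.25 against the marker-poor ones (edgeR adjusted p = 2.41e-11) and 5.996 ± 0.225 against kidney-rich nuclei (edgeR adjusted p = 1.19e-12).

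Mirg, which carries most of the microRNAs printed above, ranged from 98.9 through 110 to 117 CPM in neuron-like nuclei and from 40.1 through 49.5 to 66.4 CPM in glia-like nuclei. In all marker-poor glia-like nuclei together it had 5 UFIs, and in all kidney-rich nuclei 7 UFIs, at 0.48 and 2.55 CPM. Its log2 change was 1.09 ± 0.10 against glia-like nuclei (edgeR adjusted p = 2.53e-07). From the pooled counts the level in neuron-like nuclei was 51.9 times that in marker-poor glia-like nuclei (exact 95% interval 22.2 to 160, counting error only) and 69.1 times that in kidney-rich nuclei (33.5 to 172). The neuron-like pool holds all 7 libraries and the kidney-rich pool only 2, unpaired, and this also holds for the pooled ratios of the genes below.

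Dlk1 was the rarest of the 4 in these nuclei, with 1510 UFIs in all. In neuron-like nuclei it ranged from 5.48 through 8.19 to 14.1 CPM, and in glia-like nuclei from 0 through 2.12 to 15.9 CPM on 34 UFIs, so that the 2 kinds overlapped. The log2 change was 1.42 ± 0.48 (edgeR adjusted p = 0.0257), and the call was lost without No_index_fresh_1 (1.18, adjusted p = 0.0899), without No_index_fresh_2 (1.18, adjusted p = 0.0991) and with nuclei thinned to 3000 UFIs (1.27, adjusted p = 0.0749). With clusters at a resolution of 1.2 the sign turned (-0.10, adjusted p = 0.916). In kidney-rich nuclei it stood at 1.43 and 5.52 CPM on 16 UFIs, of which 14 came from the 4 nuclei above the neuron-marker limit. The log2 change against kidney-rich nuclei was 1.53 ± 0.74 (edgeR adjusted p = 0.0790), and it passed without Index_frozen_2 (2.88, adjusted p = 0.0420) and without Index_fresh_1 (1.63, adjusted p = 0.0106). Without those 4 nuclei the pooled level in neuron-like nuclei was 19.3 times that in kidney-rich nuclei (exact 95% interval 5.33 to 159).

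In the Prader-Willi region, Snhg14 had from 1366 through a median of 1499 to 1635 CPM in neuron-like nuclei (1494 ± 95.6, n = 7). In glia-like nuclei it ranged from 674 through 825 to 1093 CPM, and in the marker-poor ones from 40.3 through 68.5 to 98.9 CPM. In kidney-rich nuclei it was at 6.19 and 8.07 CPM on 32 UFIs in all. These 4 sets of libraries did not overlap. The log2 change was 0.94 ± 0.08 against glia-like nuclei (edgeR adjusted p = 7.84e-08), 4.71 ± 0.21 against the marker-poor ones (edgeR adjusted p = 3e-12) and 7.94 ± 0.22 against kidney-rich nuclei (edgeR adjusted p = 6.12e-14), the largest estimate of the 10 genes in the last comparison. Snrpn and Ndn, with 3 and 1 UFIs in kidney-rich nuclei, cannot be ordered against it by these counts.

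Snrpn ranged from 77.0 through 83.7 to 103 CPM in neuron-like nuclei and from 29.96 through 50.1 to 73.7 CPM in glia-like nuclei. In marker-poor glia-like nuclei it held 44 UFIs and varied from 0 to 39.6 CPM between libraries, and in kidney-rich nuclei it held 3 UFIs. The log2 change was 0.89 ± 0.11 against glia-like nuclei (edgeR adjusted p = 3.92e-06) and 2.46 ± 0.34 against the marker-poor ones (edgeR adjusted p = 7e-06). From pooled counts the level in neuron-like nuclei was 125 times that in kidney-rich nuclei (exact 95% interval 42.7 to 605). Gm38393, the model that overlaps Snrpn on the same strand, showed 115 CPM in neuron-like nuclei, 29.4 in marker-poor glia-like and 8.80 in kidney-rich nuclei.

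Ndn, a short gene of 3694 bases, ranged from 10.2 through 15.6 to 19.2 CPM in neuron-like nuclei and from 5.76 through 9.52 to 14.4 CPM in glia-like nuclei. Its log2 change against glia-like nuclei was 0.62 ± 0.17 (edgeR adjusted p = 0.00651), and it was 0.09 (edgeR adjusted p = 0.775) with finer clusters at a resolution of 1.2. In marker-poor glia-like nuclei Ndn held 10 UFIs and passed the filter on low counts through the other sums. From pooled counts the level in neuron-like nuclei was 3.38 times as high (exact 95% interval 1.84 to 7.06, counting error only). In kidney-rich nuclei 1 UFI of Ndn was counted, and the pooled level in neuron-like nuclei was 63.0 times as high (exact 95% interval 11.3 to 2491).

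Ube3a stood apart from its neighbours. It ranged from 87.1 through 90.5 to 105 CPM in neuron-like nuclei (92.3 ± 6.203, n = 7), from 96.3 through 101 to 136 CPM in glia-like nuclei (105 ± 13.9, n = 7), from 82.2 through 105 to 143 CPM in the marker-poor ones (110 ± 20.9, n = 6), and stood at 165 and 151 CPM in kidney-rich nuclei. Neuron-like and both sets of glia-like libraries overlapped, and both kidney-rich sums lay above every other library. The log2 change against glia-like nuclei was -0.10 ± 0.07 (edgeR adjusted p = 0.272) and 0.05 ± 0.14 against the marker-poor ones (edgeR adjusted p = 0.821). Against kidney-rich nuclei it was -0.40 ± 0.11 (edgeR adjusted p = 0.00397), a call that was lost without Index_frozen_1 (-0.33, adjusted p = 0.111), with nuclei thinned to 3000 UFIs (-0.39, adjusted p = 0.0625), in nuclei at or below their cluster's median share of neuron markers (-0.42, adjusted p = 0.0510) and in the marker-poor nuclei (-0.15, adjusted p = 0.53). Without scaling, the neuron-like nuclei of Index_frozen_1 and Index_frozen_2 had 87.2 and 90.5 CPM, below the kidney-rich nuclei of both libraries. The pooled ratio of neuron-like CPM (7 libraries) to kidney-rich CPM (2 libraries) was 0.577 with all kidney-rich nuclei and 0.576 with the marker-poor ones. Between these fits the median log2 change over all genes moved from -0.15 to 0.10.

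Over the body of Ube3a, 4 rows for annotated transcripts of the opposite strand hold RNA antisense to it: 9330162G02Rik, Gm44562, Gm44559 and Gm44560. The first lies within Ube3a for 84.2% of its bases and the others wholly, and UFIs from outside Ube3a were not set apart. They were picked after their values had been seen. Their sum was 399 ± 53.4 CPM in neuron-like nuclei (n = 7), 217 ± 42.9 in glia-like nuclei (n = 7), 9.39 ± 3.78 in marker-poor glia-like nuclei (n = 6) and 5.09 ± 1.81 in kidney-rich nuclei (n = 2). Counted per UFI of Ube3a, there were 4.32 ± 0.52 antisense UFIs in neuron-like nuclei, between 3.67 and 5.25 in the 7 libraries. Glia-like nuclei had 2.06 ± 0.34 in all, between 1.72 and 2.73, and those with few neuron markers 0.089 ± 0.045, between 0.044 and 0.15 in 6 libraries. In kidney-rich nuclei the ratio was 0.023 and 0.042. The kinds did not overlap, and the higher kidney-rich ratio lay just under the lowest marker-poor glia-like one. The largest row, 9330162G02Rik with 50619 UFIs, was higher in neuron-like nuclei by 1.00 on the log2 scale against glia-like nuclei (edgeR adjusted p = 7.78e-08), by 5.80 against the marker-poor ones (edgeR adjusted p = 3.14e-12) and by 6.30 against kidney-rich nuclei.

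**Figure D3:**
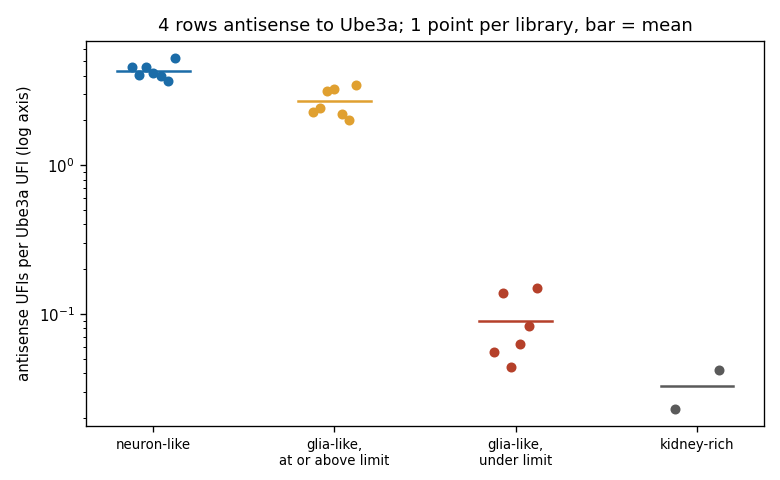
Antisense UFIs per UFI of Ube3a by kind of nuclei (log axis), where each point is 1 library. Neuron-like libraries lie between 3.67 and 5.25, and marker-poor glia-like and kidney-rich libraries lie at 0.15 or less.

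Peg3 ranged from 249 through 305 to 330.1 CPM in neuron-like nuclei, from 123 through 185 to 251 CPM in glia-like nuclei and from 28.3 through 48.9 to 107 CPM in the marker-poor ones, and stood at 21.9 and 16.1 CPM in kidney-rich nuclei. The highest glia-like library reached the lowest neuron-like ones, and the marker-poor and kidney-rich sums lay below both. The log2 change was 0.83 ± 0.09 against glia-like nuclei (edgeR adjusted p = 9.31e-07), 2.64 ± 0.20 against the marker-poor ones (edgeR adjusted p = 2.77e-09) and 4.04 ± 0.19 against kidney-rich nuclei (edgeR adjusted p = 1.63e-11).

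Kcnq1ot1 was the noncoding RNA that differed least between kinds. It ranged from 347 through 360.4 to 429 CPM in neuron-like nuclei (384 ± 39.1, n = 7), from 274 through 338 to 398 CPM in glia-like nuclei and from 210.1 through 324 to 364 CPM in the marker-poor ones, and stood at 443 and 399 CPM in kidney-rich nuclei. The ranges of the 3 brain kinds overlapped. The log2 change was 0.30 ± 0.07 against glia-like nuclei (edgeR adjusted p = 0.00131) and 0.68 ± 0.14 against the marker-poor ones (edgeR adjusted p = 5.56e-04). Against kidney-rich nuclei it was 0.43 ± 0.11 with TMM scaling (edgeR adjusted p = 0.00292), a call that was lost without Index_frozen_2 (0.37, adjusted p = 0.0623), with nuclei thinned to 3000 UFIs (0.27, adjusted p = 0.143) and without the library block (0.22, adjusted p = 0.252). Without scaling, the neuron-like nuclei of Index_frozen_1 and Index_frozen_2 had 429 and 422 CPM beside the 443 and 399 CPM of their kidney-rich nuclei, with no common direction. Against marker-poor kidney-rich nuclei the change was 0.72 ± 0.22 (edgeR adjusted p = 0.00833), and that call was lost with upper-quartile scaling (0.44, adjusted p = 0.0811) and without any 1 of 5 libraries (No_index_frozen_1, both Index_frozen and both No_index_fresh, adjusted p between 0.0614 and 0.136). The pooled ratio of neuron-like CPM (7 libraries) to kidney-rich CPM (2 libraries) of Kcnq1ot1 was 0.923 with all kidney-rich nuclei and 0.928 with the marker-poor ones. Between these fits the median log2 change over all genes moved from -0.15 to 0.10. Kcnq1 on the other strand had 5.11 ± 1.26 CPM in neuron-like nuclei (n = 7) and 314 ± 59.3 in kidney-rich nuclei (n = 2), a log2 change of -5.79 ± 0.29 (edgeR adjusted p = 3.74e-11).

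The glial types were then compared with neuron-like nuclei 1 by 1. The share of 10188 genes that passed was 37.3% against astrocyte-like, 39.9% against oligodendrocyte-like and 21.3% against OPC-like nuclei. Meg3 was higher in neuron-like nuclei by 0.86, 0.99 and 1.36 on the log2 scale, Rian by 0.79, 0.93 and 1.22, Mirg by 0.97, 1.10 and 1.54, Snhg14 by 0.83, 0.93 and 1.23, Snrpn by 1.10, 0.73 and 1.39, and Peg3 by 0.65, 0.90 and 1.05. These 6 passed the test in each of the 3 comparisons. Ube3a passed in none, with -0.02, -0.15 and -0.10, Kcnq1ot1 passed against astrocyte-like (0.50) and oligodendrocyte-like nuclei (0.27) and not against OPC-like nuclei (0.01, edgeR adjusted p = 0.970), and Ndn passed against oligodendrocyte-like nuclei (0.75) and neither against astrocyte-like (0.39, edgeR adjusted p = 0.223) nor OPC-like nuclei (0.66, edgeR adjusted p = 0.276). Dlk1 did not pass the filter on low counts. Among marker-poor nuclei the pooled level of Meg3 was 54.8 CPM in 54 astrocyte-like, 65.8 in 121 oligodendrocyte-like and 258 in 44 OPC-like nuclei, and that of Ube3a was 96.7, 108 and 114 CPM. Differences between the glial types were not tested. The 101 endothelial-like nuclei had 1380 ± 632 CPM of Meg3 (n = 6) beside 5110 CPM of neuron markers, and the 45 marker-poor ones among them had 116 CPM of Meg3, 175 of Ube3a and 261 of Kcnq1ot1 in the pool.

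The share of nuclei with at least 1 UFI gave the same picture at a fixed depth of 3000 UFIs per nucleus, which 9833 of 9836 neuron-like nuclei reached. Meg3 was seen in 98.4% of neuron-like nuclei (99.6% without thinning) and in 5.82% of kidney-rich nuclei (7.48% without thinning, exact 95% interval of the thinned share 3.90% to 8.30%), in which the share that comes from free RNA was not tested. Snhg14 was seen in 94.9% and 2.08%, Rian in 86.2% of neuron-like nuclei, Peg3 in 50.2% and 5.82%, and Mirg in 25.7% of neuron-like nuclei. Ube3a was seen in 24.1% of neuron-like and 34.7% of kidney-rich nuclei and Kcnq1ot1 in 63.2% and 65.9%. Ndn and Dlk1 were seen in 4.13% and 1.94% of neuron-like nuclei, and their absence from single nuclei says little at this depth. Median depths before thinning were 12993 and 8765 UFIs.

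Between clusters of neurons the levels of some of the genes lay far apart. They are given as a description, since the clusters were made from the same nuclei, though without the imprinted genes. The largest cluster, 1691 nuclei led by Gabrq, Baiap3 and Glra1, had the highest pooled level of Meg3 (5095 CPM), Snhg14 (2026), Snrpn (185), Ndn (36.6), Peg3 (571), Kcnq1ot1 (462) and Dlk1 (37.4) among the 18 neuron-like clusters. A cluster of 144 nuclei led by B020031H02Rik, Glp1r and Col6a3 had 5048 CPM of Meg3, the Sst interneuron-like cluster 4059 CPM and the thalamic-like cluster 3984 CPM. The lowest level of Meg3 was in 410 dentate granule-like nuclei, with 726 CPM, which also had the lowest Rian (226), Snhg14 (920) and Peg3 (127). In each library Meg3, Rian and Mirg in this cluster lay below the lowest glia-like library. Striatal-like clusters led by Drd1 or Drd2 had 2066 and 1806 CPM of Meg3. Ube3a kept to 76.5 to 108 CPM and Kcnq1ot1 to 309 to 462 CPM over the 18 clusters, while Snrpn went down to 19.3 and Ndn to 2.12 CPM.

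**Figure D4:**
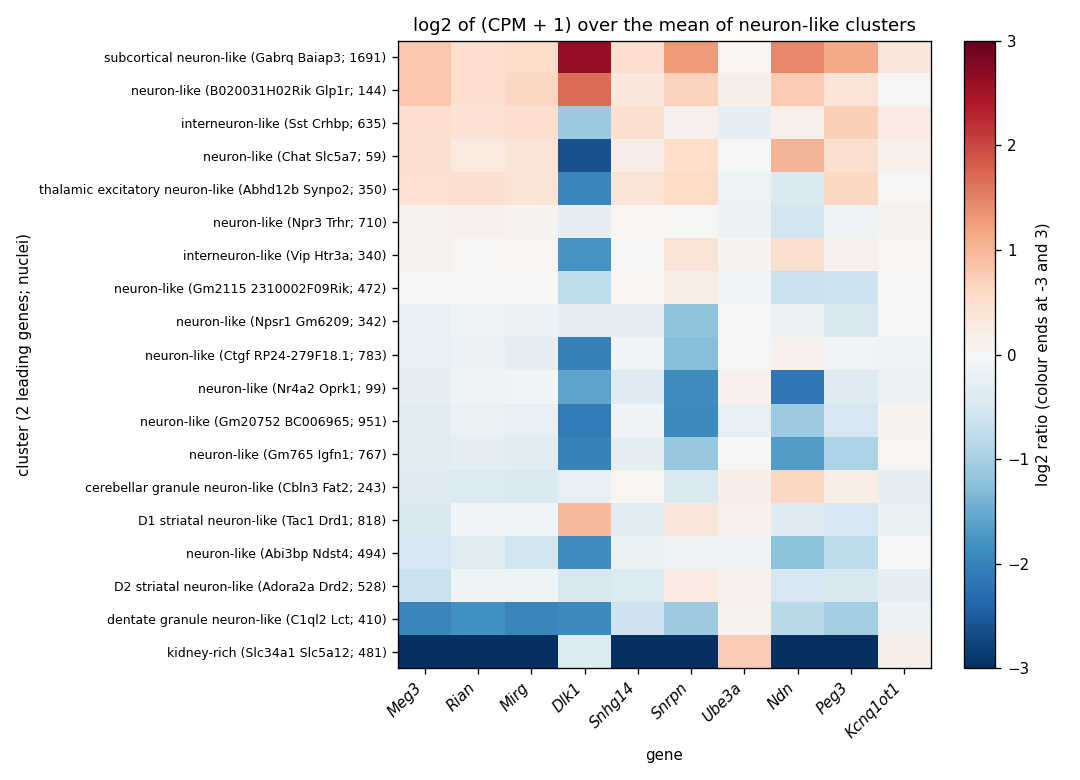
Pooled level of the 10 genes in the 18 neuron-like clusters, ordered by Meg3, and in the kidney-rich cluster, as log2 of the ratio of CPM plus 1 to the mean of the neuron-like clusters plus 1, with colours ending at -3 and 3. The dentate granule-like cluster (726 CPM of Meg3) and the cluster led by Gabrq (5095 CPM) are the 2 ends of the order, and the columns of Ube3a and Kcnq1ot1 stay near 0 in the neuron-like clusters.

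The cluster led by Gabrq was compared with the pool of the other neuron-like nuclei in each library. It had been named above for its high pooled levels in the same nuclei. Ratios above 1 were thus largely fixed in advance, and the values describe their size only. Meg3 had 5013 ± 342 CPM in it and 2576 ± 117 in the other neuron-like nuclei (SD, n = 7), and the ratio was 1.78 to 2.13 in the 7 libraries. For Dlk1 the values were 35.8 ± 13.4 and 3.07 ± 1.07 CPM with a ratio of 4.88 to 19.7, for Ndn 36.2 and 10.1 CPM with 2.60 to 5.06, for Snrpn 188 and 65.0 CPM with 2.35 to 3.44, and for Peg3 573 and 231 CPM with 2.25 to 2.95. Snhg14, Rian, Mirg and Kcnq1ot1 were above the rest in 7 of 7 libraries at smaller ratios, and Ube3a, with 98.8 and 91.1 CPM, in 6 of 7. Dlk1 was the most uneven of the 10: 1040 of its 1413 UFIs in neuron-like nuclei (73.6%) came from this cluster, which makes up 17.2% of the nuclei, and 259 of 1691 of its nuclei (15.3%) held a UFI of Dlk1, against 2.32% of other neuron-like nuclei. The highest count in a single nucleus was 33 UFIs.

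The antisense ratio at Ube3a also differed between neurons. Over the 18 neuron-like clusters it ran from 1.58 antisense UFIs per UFI of Ube3a in the Drd2 striatal-like cluster to 7.53 in the Sst interneuron-like cluster, with a median of 3.92. The Gabrq-led cluster had 6.59 and the thalamic-like cluster 6.60, and the dentate granule-like and Drd1 striatal-like clusters 1.65 and 1.77. Every neuron-like cluster lay above the highest marker-poor glia-like library, at 0.15. Without the limit on neuron markers, the pooled ratio was 1.92 in oligodendrocyte-like nuclei, 2.27 in those like astrocytes and 1.51 in those like OPCs. The values 1.92 and 2.27 lay above those of the dentate granule-like, Drd1 and Drd2 striatal-like clusters. The value 1.51 lay below every neuron-like cluster.

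Across the 24 clusters with at least 50 nuclei, the genes whose pattern of log2 level was most like that of each of the 10 were named by Pearson's r over 12255 genes, as a description of clusters that share libraries and depth. Meg3, Rian and Mirg were closest to one another and to Gm37899, which lies between Rian and Mirg on the same strand: r was 0.997 for Rian and Mirg, 0.990 for Meg3 and Mirg, 0.988 for Meg3 and Rian, and 0.985 to 0.993 for Gm37899. Snhg14 was closest to Map7d2 (0.993) and to Gm44560 (0.989), one of the rows antisense to Ube3a. Snrpn was closest to Dpp6 (0.922), Peg3 to Tmem130 (0.968) and Ndn to Flywch1 (0.890), with Tmem130 (0.887) next. Ube3a was closest to Nipbl (0.923) and Picalm (0.916), and not to a gene of its own region. Kcnq1ot1 was closest to Stau2 (0.817), and Dlk1 to Cdh23 (0.751).

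Within the 18 neuron-like clusters alone, where the contrast of neurons with other cells does not enter, r stayed at 0.994 for Rian and Mirg, 0.960 for Meg3 and Mirg and 0.954 for Meg3 and Rian. It was 0.888 for Meg3 and Snhg14, which lie on different chromosomes, and 0.890 for Snhg14 and Peg3, which lie in different regions of the same chromosome. Meg3 and Dlk1, neighbours read from opposite parental copies, gave 0.361, and Ube3a and Snhg14, which overlap on opposite strands, gave -0.306. Rian UFIs per Meg3 UFI ran from 0.223 to 0.410 over the neuron-like clusters, with a median of 0.287, and Mirg UFIs per Meg3 UFI from 0.031 to 0.053.

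A list of 70 further imprinted genes was compared in the same fits. Of the 50 that passed the filter, 18 were higher and 12 lower in neuron-like than in glia-like nuclei and 20 did not pass, beside the 43.1% of all genes that passed, with a median log2 change of 0.23. Among those higher were Usp29, which shares its start region with Peg3 (0.91, 309 and 178 CPM, edgeR adjusted p = 4.51e-06), Grb10, which encodes an adaptor of the insulin receptor and is read from the paternal copy in neurons (0.97, 123 and 68.8 CPM, edgeR adjusted p = 1.43e-06), the potassium channel gene Kcnk9 (0.98, 32.5 and 17.6 CPM, edgeR adjusted p = 7.94e-06) and Atp10a (0.94, edgeR adjusted p = 8.06e-05). Among those lower were Pon2, a paraoxonase gene (-4.38, 0.595 and 12.6 CPM, edgeR adjusted p = 9.83e-10), and Cd81, a tetraspanin gene (-1.70, 26.8 and 90.7 CPM, edgeR adjusted p = 2.73e-09). Also lower, at low levels, were the growth factor gene Igf2 (-2.57, 0.605 and 3.68 CPM, edgeR adjusted p = 4.37e-04) and Pon3 (-1.92, 0.404 and 1.62 CPM, edgeR adjusted p = 0.00105). The SD of Igf2 between glia-like libraries was 3.98 CPM (n = 7), above its mean. Against marker-poor glia-like nuclei 20 of 48 were higher, 9 lower and 19 did not pass (47.0% of all genes passed), with Grb10 at 4.67, Kcnk9 at 4.12 and Usp29 at 3.42. Against kidney-rich nuclei 24 of 50 were higher, 20 lower and 6 did not pass (68.5% of all genes passed), with Usp29 at 7.52 and Slc22a18, a transporter gene of the Kcnq1 region that had 185 CPM in kidney-rich nuclei, at -9.78.

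Storage and primer were the factors of the study's own design, and asked whether freezing or the preindex alters what is recovered. Over the sums of all nuclei, 0 of the 10 genes passed for frozen against fresh tissue with edgeR and 0 with DESeq2, where 0.207% of 19299 genes passed with edgeR. Of the 10, 1 had an unadjusted p under 0.05 in edgeR, beside 2901 of all 19299 genes. This 1 was Meg3, with a log2 change of -0.14 (edgeR adjusted p = 0.220). In neuron-like nuclei 0 passed with edgeR or DESeq2 as well, beside 0.321% of 18071 genes with edgeR. There 1 of the 10 had an unadjusted p under 0.05 in edgeR, beside 2002 of all 18071 genes. That 1 was Ndn, with 0.27 ± 0.08 (edgeR adjusted p = 0.223). Over all nuclei without the kidney-rich and liver-led clusters 0 of the 10 passed for storage, beside 0.252% of 18686 genes, and Meg3 was at -0.07 (edgeR adjusted p = 0.546). Without the single Index_fresh library Ube3a passed in both comparisons and was higher in frozen tissue (0.22, edgeR adjusted p = 0.0258 over all nuclei, and 0.23, edgeR adjusted p = 0.0251 in neuron-like nuclei), where storage called 4.63% and 4.04% of all genes.

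For preindex against none, 4 of the 10 genes passed in neuron-like nuclei, where 20.7% of 18071 genes did, 11.2% higher and 9.49% lower. Kcnq1ot1 had 424, 429 and 422 CPM in the preindexed libraries (Index_fresh_1, Index_frozen_1 and Index_frozen_2) and 349, 347, 360.4 and 355 CPM in the others (No_index_fresh_1 and 2, No_index_frozen_1 and 2), with no overlap, and was higher with the preindex by 0.42 ± 0.04 (edgeR adjusted p = 1.09e-04). Rian had 936, 857 and 850.1 CPM with and 774, 776, 770.0 and 817 CPM without preindex, in the same order of libraries. Its groups did not overlap either, and the change was 0.32 ± 0.05 (edgeR adjusted p = 8.98e-04). Peg3 had 258, 250 and 249 CPM with and 305, 323, 327 and 330.1 CPM without preindex. The groups were again apart, with a change of -0.20 ± 0.05 (edgeR adjusted p = 0.0102) that missed the threshold without Index_frozen_2 (-0.18, adjusted p = 0.0562). Ndn had 10.2, 12.9 and 12.7 CPM with and 15.6, 16.1, 16.2 and 19.2 CPM without preindex, a change of -0.40 ± 0.08 (edgeR adjusted p = 0.00481) that was not called with nuclei thinned to 3000 UFIs (-0.23, adjusted p = 0.324) or with clusters at a resolution of 1.2 (-0.36, adjusted p = 0.0503). Cerebellar granule-like neurons were found only in the 4 libraries without preindex, with 309 CPM of Kcnq1ot1, 602 of Rian, 304 of Peg3 and 20.3 of Ndn in the pool. They numbered 38 and 45 in No_index_fresh_1 and 2, and 74 and 86 in No_index_frozen_1 and 2. Without that cluster the same 4 genes passed, beside 18.2% of 17852 genes, at 0.39 for Kcnq1ot1, 0.29 for Rian, -0.21 for Peg3 and -0.37 for Ndn (edgeR adjusted p between 2.51e-04 and 0.0105). The Gabrq-led cluster, highest in Peg3 and Ndn, held 466 of 2934, 284 of 1848 and 260 of 1652 neuron-like nuclei with preindex. Without preindex it held 185 of 916, 234 of 1159, 126 of 620 and 136 of 707. Inside it the primer groups overlapped for Peg3 (549, 570 and 527 against 561, 596, 586 and 620 CPM). So they did for Ndn (27.1, 33.0 and 40.6 against 35.6, 41.8, 37.8 and 37.9 CPM). In the other neuron-like nuclei neither gene overlapped. The effect of makeup was not tested.

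**Figure D5:**
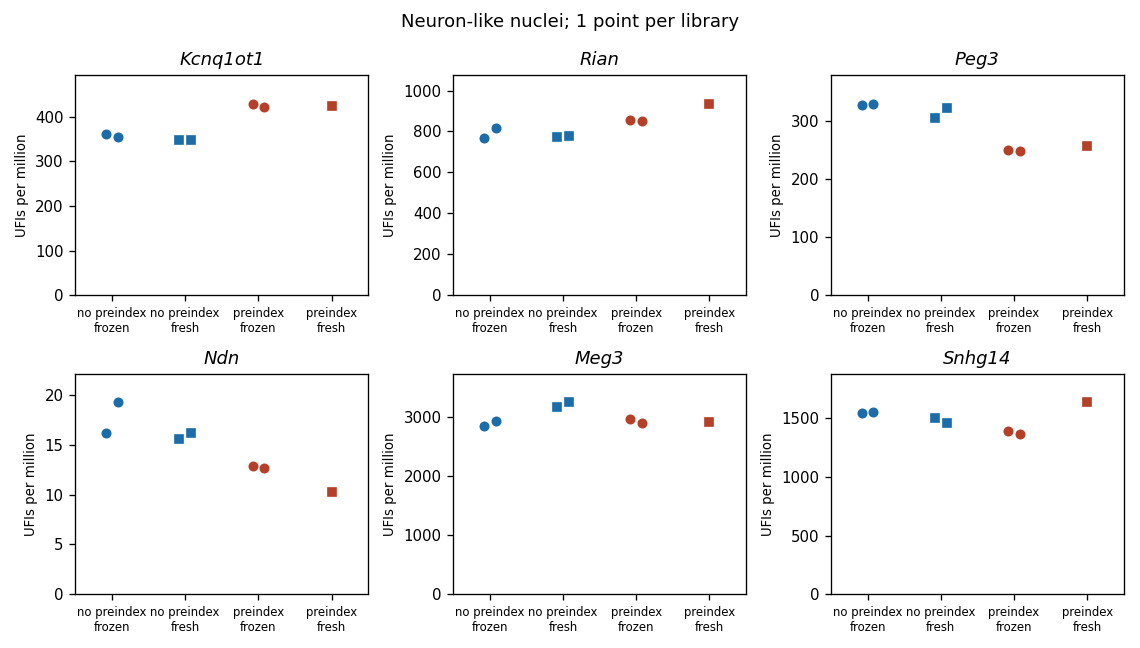
Level of 6 of the genes in neuron-like nuclei by library and condition, in CPM with axes from 0. Kcnq1ot1 is at 422 to 429 CPM in the 3 preindexed libraries and at 347 to 360.4 CPM in the other 4, while Peg3 and Ndn are lower in the preindexed libraries and Meg3 and Snhg14 overlap between the primers.

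Over all nuclei the primer called 3 of the 10, beside 15.8% of 19299 genes, 7.88% in each direction: Kcnq1ot1 was higher with the preindex (0.35 ± 0.05, edgeR adjusted p = 0.00473) and Peg3 (-0.34 ± 0.07, edgeR adjusted p = 0.0200) and Ndn (-0.48 ± 0.07, edgeR adjusted p = 0.00742) were lower. These sums hold the kidney-rich nuclei of the 2 Index_frozen libraries, which carry little Peg3 or Ndn. Without the kidney-rich and liver-led clusters 4 of the 10 passed, beside 19.3% of 18686 genes, with Rian now also higher (0.32, edgeR adjusted p = 0.00286). The call of Ndn over all nuclei was lost with nuclei thinned to 3000 UFIs (-0.35, edgeR adjusted p = 0.132). The call of Peg3 over all nuclei was lost when any 1 of the 4 frozen libraries was left out, with adjusted p between 0.0587 and 0.0854. Without Index_fresh_1 the primer called 5 of the 10 over all nuclei, beside 31.3% of 18125 genes, with Snhg14 (-0.25, edgeR adjusted p = 4.73e-04) and Snrpn (-0.38, edgeR adjusted p = 0.00214) lower in addition. Of the further imprinted genes, 8 were higher and 6 lower with the preindex over all nuclei, of 57 tested, and 8 were higher and 7 lower in neuron-like nuclei, of 56 tested.

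The effect of the preindex differed between frozen and fresh tissue, by the interaction of the 2 factors, for 6 of the 10 genes over all nuclei, beside 16.4% of 19299 genes, and for 1 of the 10 in neuron-like nuclei, beside 6.33% of 18071 genes. Snhg14 passed in both (-0.56, edgeR adjusted p = 4.29e-05, and -0.34, edgeR adjusted p = 0.00524). In neuron-like nuclei it had 1635 CPM in Index_fresh_1, above the 1390.1 and 1366 CPM of the 2 Index_frozen libraries, while the 4 libraries without preindex lay between 1462 and 1557 CPM. The fresh preindexed side of this comparison is 1 library.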

How the data were processed

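The deposited values of the brain libraries were UFI counts per gene and nucleus, as whole numbers. To make them, the authors trimmed adapters and poly-A, chose cell barcodes by a manual cutoff, aligned reads with STAR in 2-pass mode, kept unique alignments, assigned them to whole genes with featureCounts and counted UFIs with UMI-tools. Because introns count, long genes collect more UFIs, and levels were ranked between genes per kb of gene body. Ratios of UFIs between genes, as at Ube3a and Meg3, and total UFIs of genes were not scaled to length. The submitters' processing notes list GRCh38, GRCm38 and mm10 without roles. Gene positions came from the GENCODE annotation of GRCm38, in which 94.1% of the 34496 symbols have an entry, and the strand setting of the counting was not given in the sources used here. The files of 5 species-mix libraries of cell lines were not used.

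Depth per library was 8605214 to 42439731 UFIs. Exact 95% intervals of shares (Clopper-Pearson) and of ratios of pooled counts cover counting error only. All nuclei were kept, no doublet caller was run and none was removed. Counts were scaled to 10000 per nucleus, logged, reduced to 2000 variable genes without the 10 genes and the further imprinted genes, and clustered on 40 principal components with 10 neighbours and Leiden resolution 0.4 (scanpy 1.11.5, leidenalg 0.10.2, Python 3.11.15). UFIs were summed per library over kinds with at least 10 nuclei and tested with edgeR 4.0.16 in R 4.3.3 (filterByExpr, TMM, quasi-likelihood test, Benjamini-Hochberg over all genes tested, threshold 0.05). Neuron-like, glia-like and kidney-rich sums shared 1 fit with a library term, and storage and primer were the terms of the other fits. In simulated data with 200 genes changed by 1.5 on the log2 scale, the fit recovered 170 for neuron-like against glia-like nuclei (11909 genes, 183 called, 7.1% false) and 149 for storage over all nuclei (18646 genes, 155 called, 3.87% false). Apart from these genes, all simulated libraries and kinds shared 1 profile. In the data 43.1% of genes passed for neuron-like against glia-like nuclei, so the simulation does not show the error rate there.

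The 10 genes and all gene lists were chosen with earlier results of these data known. Named are the 10 genes, up to 5 further imprinted genes higher and 5 lower by size of change in neuron-like against glia-like nuclei, and the 3 genes most like each of the 10 over clusters, by Pearson's r of log2(CPM + 1). Not each of those is printed. The rows antisense to Ube3a, Gm38393 and Kcnq1 were added after their values had been seen. Alternatives were other clusterings, DESeq2 1.42.0, scaling by the upper quartile, all genes kept whatever their counts, nuclei thinned to 3000 UFIs, a replicate block and leaving out each library. The limit on neuron markers, the glial types apart and the sums without cerebellar granule-like nuclei were chosen after seeing the data.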

Additional observations from a re-analysis of the deposited data

Results flagged for a closer look

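The levels of 2 genes stood apart from the other libraries of their kind by Dixon's test, among 30 sets of 7 libraries examined, of which chance flags about 1 in 20. Rian had 915 CPM over all nuclei in Index_fresh_1, on 29404 UFIs, where the other 6 libraries lay between 741 and 788 CPM. These sums hold the kidney-rich nuclei of the 2 Index_frozen libraries, and in neuron-like nuclei Rian had 936 CPM in Index_fresh_1 and between 770.0 and 857 CPM in the others. Ube3a had 106 CPM over all nuclei in No_index_frozen_2, where the others lay between 88.1 and 95.4 CPM, and 136 CPM in the glia-like nuclei of the same library, on 135 UFIs, where the others lay between 96.3 and 105 CPM. Leaving out No_index_frozen_2 did not make Ube3a pass against glia-like nuclei.

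The effect of the preindex differed between frozen and fresh tissue for 6 of the 10 genes over all nuclei (edgeR interaction of storage and primer, beside 16.4% of 19299 genes). The log2 interaction was -0.40 for Rian (adjusted p = 5.34e-04), -0.39 for Mirg (adjusted p = 0.00691), -0.56 for Snhg14 (adjusted p = 4.29e-05), -0.55 for Snrpn (adjusted p = 0.00403), -0.25 for Ube3a (adjusted p = 0.0396) and -0.35 for Peg3 (adjusted p = 0.00207), each in edgeR and each negative, that is, lower in the frozen preindexed libraries than the sum of the 2 effects. These 2 libraries are also the ones that hold the 481 kidney-rich nuclei, and the fresh preindexed group is 1 library. In neuron-like nuclei, which leave the kidney-rich ones out, only Snhg14 passed, at -0.34 (edgeR adjusted p = 0.00524, beside 6.33% of 18071 genes).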

How the results depend on the processing

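Dlk1 against glia-like nuclei turned from higher to -0.10 (adjusted p = 0.916) at a Leiden resolution of 1.2, and the cause was not tested. Ube3a, not called in either case, went from -0.10 to 0.0458 in marker-poor glia-like nuclei, and there to 0.0619 and 0.0380 without No_index_frozen_1 and 2, 0.157 and 0.136 without Index_frozen_1 and 2, and 0.0607 and 0.130 without No_index_fresh_1 and 2. Meg3, not called for the primer over all nuclei, was 0.0100 without the filter on low counts and 0.10 without the kidney-rich and liver-led clusters, on the other side of 0 from the reported value. For storage over all nuclei, 2 of the 10 genes passed without the filter (Meg3 and Mirg), beside 5.62% of 34496 genes. Leaving out single libraries gave 0 to 1 gene for storage over all nuclei, 0 to 1 for storage in neuron-like nuclei, 2 to 5 for the primer over all nuclei, 3 to 5 for the primer in neuron-like nuclei and 8 to 9 against glia-like nuclei, with the outer values for storage from leaving out Index_fresh_1. Over all genes these leave-out fits called 0.0207% to 4.63% for storage over all nuclei and 0.149% to 4.04% in neuron-like nuclei. For the primer they called 5.26% to 31.3% and 13.7% to 21.4%, and against glia-like nuclei 35.2% to 42.4%. Against kidney-rich nuclei they called 67.9% to 69.1% where both Index_frozen libraries stayed in, and among these fits Dlk1 passed without Index_fresh_1. Leaving out an Index_frozen library leaves 1 library with kidney-rich nuclei, and no count is given for those fits. Libraries of the same replicate number did not deviate together (correlations between -0.04 and 0.04), and the reported fits do not use the number as a pair. With at most 2 libraries per group these correlations cannot exclude a shared animal or run. With a replicate block 0 genes passed for storage in each set of nuclei, 3 for the primer over all nuclei and 4 in neuron-like nuclei, as in the fits without it. Of all genes, the block fits called 0.0259% and 0.188% for storage and 8.97% and 15.8% for the primer, over all and neuron-like nuclei. Of all genes, storage called 40 over all nuclei, 316 with DESeq2, 1937 without the filter, 840 without Index_fresh_1 and 5 with the replicate block. The primer called 3041 over all nuclei (1521 higher), 3059 with DESeq2 (1908 higher), 1731 with the block and 1009 without Index_frozen_2. Storage in neuron-like nuclei called 58 genes, 114 with DESeq2 and 682 without Index_fresh_1. Depth limits Dlk1, Ndn, Snrpn and Mirg in marker-poor glia-like and kidney-rich nuclei, where 1 to 44 UFIs carry each level, and kidney-rich nuclei come from 2 libraries.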

Other observations

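Among nuclei of no comparison, the 89 nuclei of the cluster led by liver genes with microglia markers had 2024 CPM of Meg3 in the pool (1961 ± 539 over the 5 libraries with at least 10 such nuclei), beside 7668 CPM of the 7 neuron markers. Dlk1 had 20.9 CPM in the pool but 1.77 ± 2.67 CPM over those 5 libraries, so that libraries with under 10 nuclei carry the pooled value. The endothelial-like nuclei had 79.7 CPM of Kcnq1, and the 45 marker-poor ones among them 134 CPM, where neuron-like nuclei had 5.11 ± 1.26 CPM.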
